A study of Mus musculus with 3 samples.

Results

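Group 2 innate lymphoid cells (ILC2) were taken from single-cell RNA libraries of mouse lung by a rule on UMIs (unique molecular identifiers, 1 per captured transcript). A barcode was kept when it had at least 250 genes and at most 15% of its UMIs from mitochondrial genes. A kept barcode became a member when it had at least 1 UMI of Gata3, at least 1 UMI summed over Il1rl1, Il5 and Il13, and none of the T cell genes Cd3d, Cd3e and Cd3g, the mast cell and basophil genes Ms4a2, Mcpt8 and Cpa3, the collagen genes Col1a1 and Col1a2, and the B cell gene Cd79a. The rule found 193 members among 28782 kept barcodes. The members were thus selected on the measured UMIs of these genes, whose levels are given below as a description and support nothing.

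The lungs came from non-irradiated wild-type mice, from irradiated wild-type mice, and from irradiated mice that carried a conditional knockout and were also given a drug (cKO with drug, below). Each group is 1 library. The labels name neither the deleted gene, the Cre driver nor the drug, and they give no radiation dose, time, age or number of mice in a library; the deletion could therefore not be checked. No library holds the knockout without the drug or the drug without the knockout, so genotype and drug cannot be told apart. With 1 library a group there is no replicate and no test. Intervals below are exact 95% intervals (Clopper-Pearson for shares, Poisson for levels) and cover counting error only. Values in threes follow the order non-irradiated wild-type, irradiated wild-type, cKO with drug.

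ILC2 are tissue-resident lymphocytes without a rearranged antigen receptor. They depend on the transcription factors GATA3 and RORα, and respond to the epithelial and stromal alarmins IL-33, TSLP and IL-25, to neuropeptides and to lipid mediators. In the lung they are known as an early source of IL-5, which sustains eosinophils, of IL-13, which drives mucus production, and of the growth factor amphiregulin, which is linked to tissue repair.

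Il5 and Il13 lie in the type 2 cytokine locus on chromosome 11, 86.1 kb apart and on opposite strands, with Rad50 between them. Their promoters (RefSeq, GRCm38.p6, 250 bases before to 50 after the start) are shown because these cytokines define the cells and GATA3 is the factor that the rule requires. Capitals mark matches, on either strand, to the GATA-type motif AGATAA or to a variant of it, which may be AGATAG and may also be TGATAA or otherwise TGATAG. The Il5 window is chr11:53720544-53720843 on the plus strand, and the Il13 window is chr11:53634653-53634952 on the minus strand.
Il5: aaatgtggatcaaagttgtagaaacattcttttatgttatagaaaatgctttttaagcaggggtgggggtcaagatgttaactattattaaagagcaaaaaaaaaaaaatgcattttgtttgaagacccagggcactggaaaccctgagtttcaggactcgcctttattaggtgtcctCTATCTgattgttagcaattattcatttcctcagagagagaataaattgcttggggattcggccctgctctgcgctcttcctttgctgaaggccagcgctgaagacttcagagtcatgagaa
Il13: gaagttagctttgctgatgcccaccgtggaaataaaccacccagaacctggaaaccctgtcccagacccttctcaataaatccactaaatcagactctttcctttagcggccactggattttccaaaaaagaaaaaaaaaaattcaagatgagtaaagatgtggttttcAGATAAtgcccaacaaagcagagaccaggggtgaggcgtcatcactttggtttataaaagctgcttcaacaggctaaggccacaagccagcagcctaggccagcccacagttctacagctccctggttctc
Each window holds 1 match, as CTATCT in Il5, the reverse complement of AGATAG, and as AGATAA in Il13. Of 32851 promoter windows of the same length, 9778 (29.8%) hold at least 1 of these motifs. A match is a description of the letters and was not tied to any measurement.

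The libraries held 85984536, 45800421 and 76667310 UMIs in 15485, 7084 and 11292 barcodes, of which 13091, 5805 and 9886 were kept. The libraries differed in makeup: 38.9%, 86.6% and 82.6% of kept barcodes had leukocyte-type profiles. Of kept barcodes, 0.00764%, 27.5% and 0.273% carried Y-linked and no Xist transcripts, so the irradiated wild-type library alone holds many male cells. Library pairs shared 18 to 32 kept barcode sequences, and no 2 members shared one.

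The members numbered 63, 70 and 60. As a share of all kept barcodes they made up 0.481% (0.37 to 0.615%), 1.21% (0.941 to 1.52%) and 0.607% (0.463 to 0.781%). The irradiated wild-type share lay above the intervals of both other libraries. The denominator matters here, because most non-leukocytes were found in the non-irradiated library. Among leukocyte-type barcodes the members were 1.2% (0.918 to 1.54%), 1.39% (1.09 to 1.76%) and 0.735% (0.561 to 0.945%). On that scale the intervals of the wild-type libraries overlapped, and the irradiated wild-type interval lay above that of cKO with drug. Per 100 barcodes with a Cd3 UMI there were 2.58, 2.33 and 1.05 members. Within female-type barcodes the shares of kept barcodes were 0.619%, 1.6% and 0.683%, the same order as over all kept barcodes; 18 of the 70 irradiated wild-type members were male-type and 48 female-type. Members had medians of 5570, 6217.5 and 6689.5 UMIs against 4899, 5706 and 6070.5 in all kept barcodes. After thinning every barcode to 1000 UMIs, which left out 1627, 165 and 478 shallower barcodes, the shares were 0.366%, 0.869% and 0.372%. Of the 42, 49 and 35 barcodes that met the rule then, 26, 37 and 25 were members at full depth. The others met the rule only after thinning, which can also remove UMIs of the excluded genes. How the tissue was dissociated and which cells were loaded can set such shares, and the sources used here do not describe either.

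**Figure D1:**
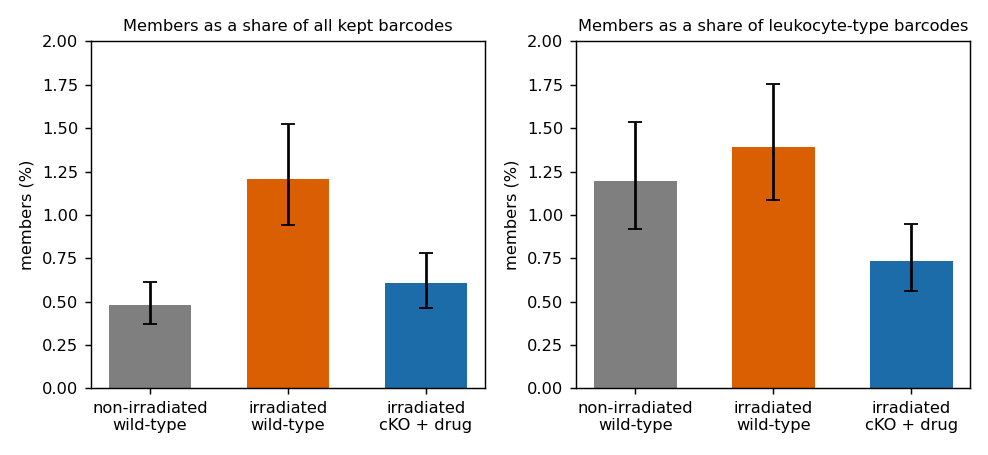
Members as a percentage of all kept barcodes (left) and of leukocyte-type barcodes (right) in the 3 libraries; bars are single libraries and error bars are exact 95% binomial intervals that cover counting error only. The irradiated wild-type library stands highest at left (1.21%), while at right the wild-type libraries are at 1.2% and 1.39% and cKO with drug is at 0.735%.

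The label was checked against 30 ILC2 genes that the rule did not use. Of these, 27, 27 and 28 were found in more than 10% of members. No such count is given here over all genes or in T cells, so it does not by itself set members apart from T cells. Rora, the nuclear receptor that ILC2 require, had a UMI in 60 of 63, 70 of 70 and 58 of 60 members, against 9.4%, 11.7% and 11.4% of B cells (at least 2 Cd79a UMIs), which should lack it. Its summed level was 2160 (2010 to 2318), 3660 (3484 to 3843) and 2499 (2352 to 2653) CPM (UMIs of the gene per 1000000 UMIs of the members). Id2, the repressor that sets innate lymphoid fate, stood at 2722, 2052 and 2525 CPM. Arg1, an arginine-metabolising enzyme that lung ILC2 express at rest, was found in 26, 24 and 28 members and in 0.561%, 0.701% and 0.393% of B cells. Areg, which encodes amphiregulin, was found in 35, 43 and 40 members at 518, 480 and 562 CPM, with overlapping intervals. Members held only 185 of 4763, 213 of 7117 and 242 of 10465 Areg UMIs of kept barcodes. B cells had median depths of 4745, 5020 and 6054 UMIs. Summed over the 30 genes, members held 11599, 13157 and 12850 CPM and T cells (at least 1 Cd3 UMI, the other exclusions kept) 4156, 5696 and 4479 CPM.

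Some well-known ILC2 genes were scarce. Ptgdr2, the prostaglandin D2 receptor used to sort ILC2, had 0 UMIs in all 3 libraries, which, at a limit of 3 counts of the total and not as an exact interval, allows a share of up to 4.76%, 4.29% and 5% of members with a UMI. Nmur1, the neuromedin U receptor, had 1 UMI in 1 irradiated wild-type member. Il17rb, the IL-25 receptor chain, was found in 3, 8 and 7 members. Klrg1, an inhibitory receptor of inflammatory and mature ILC2, was found in 19, 20 and 18 members.

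**Figure D2:**
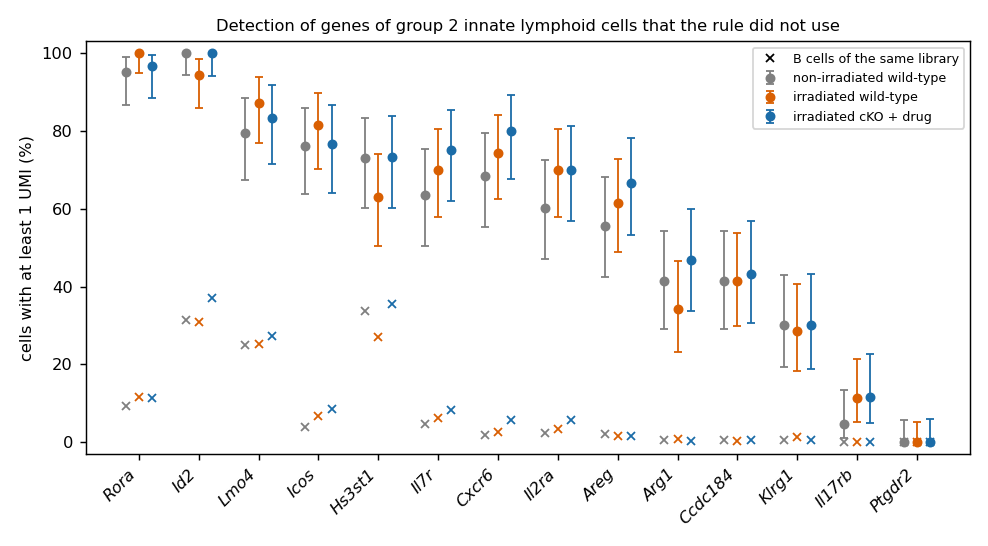
Percentage of members with at least 1 UMI of 14 ILC2 genes outside the rule; points are single libraries with exact 95% binomial intervals, and crosses give the same percentage in B cells of that library. Rora is near 100% in each library, Klrg1 near 30% and Ptgdr2 at 0, and Hs3st1, Id2 and Lmo4 also appear in over 25% of B cells.

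T cell transcripts were present in the members, as T cell receptor constant genes were not in the rule. Trbc1 was found in 29, 38 and 37 members, Trbc2 in 34, 39 and 31, Trac in 7, 9 and 11, and Trdc in 2, 4 and 6. Cd4 was found in 1 member of each library, and Cd8a and Cd8b1 in none. Members free of all these constant genes numbered 16, 13 and 11, so most members carried at least 1 such UMI. Whether some of these are T cells whose Cd3 was not detected cannot be told from these counts, and that doubt applies to every value of the members below. Barcodes that met the rule except that they carried a Cd3 UMI numbered 62, 190 and 150. They too had Rora in 96.8%, 98.4% and 96.7%, and Areg in 46.8%, 41.1% and 46%, against Areg in 55.6%, 61.4% and 66.7% of members. They had Foxp3, the regulatory T cell factor, in 25.8%, 54.2% and 48.7%, against 1.59%, 4.29% and 6.67% of members. Hs3st1, a heparan sulfate sulfotransferase, separated these sets the other way, at 22.6%, 2.11% and 6.67% of the Cd3 group and 73%, 62.9% and 73.3% of members. B cells carried Hs3st1 in 33.7%, 27.1% and 35.4%, so the gene is not particular to ILC2 in this tissue.

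Close to the thresholds, 6, 7 and 6 members had exactly 1 Gata3 UMI, and 14, 15 and 9 had exactly 1 UMI over Il1rl1, Il5 and Il13. Just outside, 19, 13 and 20 barcodes lacked only Gata3, and 63.2%, 46.2% and 40% of them had Rora. Barcodes that lacked only Il1rl1, Il5 and Il13 numbered 432, 354 and 350, of which 34.5%, 42.1% and 42% had Rora.

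A few members also held transcripts of natural killer (NK) cells. Markers of NK cells or type 1 innate lymphoid cells (13 genes, Ccl5 and Gzmb among them) summed to 4465, 766 and 3773 CPM in members, with 341, 133 and 241 UMIs in the highest single cell and none in the median cell of the first and second libraries. Members with at least 5 UMIs over Ncr1, Klrb1c, Klre1, Eomes, Gzma, Gzmb, Prf1 and Nkg7 numbered 7, 4 and 9. Results were therefore also computed without these 20 cells, a choice made after the values were seen. T cell markers summed to 797, 908 and 738 CPM in members, against 2622, 2610 and 2820 CPM in T cells. Macrophage or monocyte markers summed to 694, 275 and 559 CPM, lowest in the irradiated wild-type library. B cell markers summed to 25.2, 27 and 39.4 CPM with Cd22 and Pax5 at 0. Mast cell and basophil markers summed to 274, 196 and 167 CPM with Fcer1a at 0. Mesenchymal markers summed to 705, 108 and 153 CPM and 4 abundant epithelial transcripts, taken to follow free RNA, to 1863, 259 and 452 CPM, both highest in the non-irradiated library.

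Il5 was the cytokine of most members. It had a UMI in 48 of 63 (76.2%), 42 of 70 (60%) and 40 of 60 (66.7%) members. Il5 is a gene by which a barcode could become a member, so the rule itself raised these shares. Per cell the values ran from 0 to 31, 71 and 46 UMIs with medians of 1, 1 and 2. The 3 highest cells held 26.9%, 36% and 36.1% of the Il5 UMIs, so a summed level rests on few cells. The summed level was 781 (692 to 878), 813 (731 to 902) and 726 (648 to 811) CPM, with overlapping intervals. Members carried 61.3%, 81.7% and 74% of all Il5 UMIs of kept barcodes. The group with a Cd3 UMI carried 90, 71 and 79 of the rest, out of totals of 455, 442 and 423.

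Il13 was detected in fewer members, 5 (7.94%, 2.63 to 17.6%), 15 (21.4%, 12.5 to 32.9%) and 9 (15%, 7.1 to 26.6%), and these intervals overlap. Its level was 30.8 (15.4 to 55.1), 85.6 (60.6 to 117) and 97.5 (70.2 to 132) CPM, which places both irradiated libraries above the non-irradiated interval. These levels rest on 11, 38 and 42 UMIs, of which the 3 highest cells held 81.8%, 47.4% and 59.5%. Over all kept barcodes Il13 had 29, 152 and 108 UMIs. In the irradiated wild-type library most of the Il13 outside the members, 76 UMIs, lay in the group with a Cd3 UMI. Il4, the related type 2 cytokine at the same locus, had 0, 5 and 1 UMIs in members, and 3, 50 and 61 in mast cells and basophils. Il9 had no UMI in any member.

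Il1rl1, which encodes the IL-33 receptor chain ST2, was found in 51, 58 and 51 members at 428 (363 to 502), 441 (382 to 508) and 355 (301 to 416) CPM. Members held only 30.5%, 15.2% and 18.3% of its UMIs. The group with a Cd3 UMI held 181, 698 and 435 of 502, 1287 and 835. Gata3 stood at 1357, 1687 and 1497 CPM. Il1rl1 with Il5 and without Il13 was the most common combination (34, 29 and 24 members), followed by Il1rl1 alone (13, 19 and 20) and Il5 alone (11, 7 and 7). All 3 were found together in 3, 6 and 7 members.

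**Figure D3:**
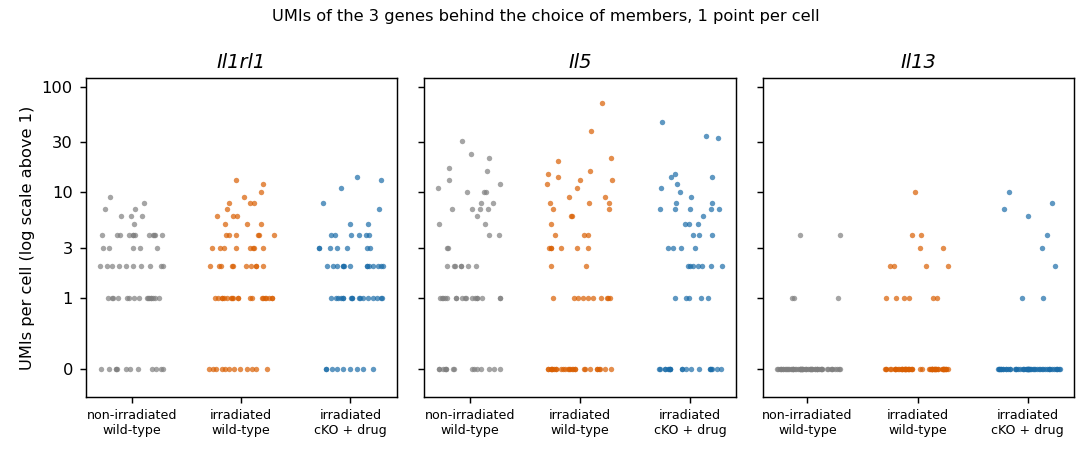
UMIs per cell of Il1rl1, Il5 and Il13, with 1 point for each of the 63, 70 and 60 members, on an axis that is logarithmic above 1 and with points spread sideways for visibility. Il1rl1 stays at or below 14 UMIs, Il5 reaches 31, 71 and 46 UMIs in single cells, and Il13 is at 0 in most cells; these genes chose the members.

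Members with and without an Il5 UMI were set side by side as a description, since Il5 is a gene of the rule. The 14 genes compared were not all identity genes, as Csf2, Ikzf2, Tnfrsf9, Lif, Odc1 and Calca are outside the list of 30. Il2ra, Ikzf2 and Tnfrsf9 are also on the list of regulatory T cell markers. On the CPM scale, 9 of the 14 were higher in the Il5 members in each of the 3 libraries: Areg, Arg1, Klrg1, Rora, Il2ra, Tnfrsf9, Ccr8, Odc1 and Calca. Over all 1190 genes with at least 30 member UMIs in each library, 283 (23.8%) were. The intervals stood clear of each other in all 3 libraries for Arg1, Odc1 and Calca, and in none for Klrg1 and Tnfrsf9. Calca, which encodes the neuropeptide CGRP, stood at 716, 2248 and 900 CPM in Il5 members and at 366, 255 and 442 CPM in the others. Arg1 stood at 342, 272 and 350 CPM against 39.2, 140 and 107 CPM. The Il5 members were also deeper, with medians of 5629, 6443.5 and 7029 UMIs against 4215, 5949.5 and 5572, and 12 of the 20 cells with NK markers lacked Il5; the part of either was not tested.

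Members were also set against T cells of the same library, over 2887 genes with at least 10 member UMIs in each library. Of these, 107 were at least 2-fold higher in members in all 3 libraries, and 14 were at least 2-fold lower in all 3. Genes scarce in members fail that minimum, so these 2 counts cannot be weighed against each other. Hs3st1 led, at 783, 505 and 680 CPM in members and 13.3, 1.02 and 2.45 CPM in T cells. Next came Calca at 641, 1509 and 770 CPM against 14.9, 14.8 and 10.7 CPM, and Arg1 at 277, 223 and 281 CPM against 4.38, 4.34 and 2.38 CPM. Lmo4, a LIM-only transcription cofactor, stood at 722, 1133 and 1239 CPM against 94.2, 72.3 and 59.3 CPM. Csf2, which encodes the myeloid growth factor GM-CSF, stood at 985, 568 and 420 CPM against 55.4, 54.3 and 48.1 CPM. The other genes of the 15 with the largest smallest difference were Fam46a, Paxbp1, Igsf5, Il10ra, Ccdc184, Ccr8, Klf4, Hes1, Ccl1 and Fosb. The group with a Cd3 UMI lay nearer to members for some of the 15 than T cells did. It had 588, 657 and 684 CPM of Fam46a, against 624, 1638 and 1543 CPM in members. For Hs3st1 that group had 225, 5.91 and 34.1 CPM. Ccr8, a chemokine receptor of type 2 lymphocytes, and Ccl1, its ligand, were both in this set, at 129, 162 and 151 CPM and at 151, 273 and 85.9 CPM.

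Between libraries, genes with at least 30 UMIs over both libraries were compared. A gene was called apart where 20 CPM were added to both levels, the resulting ratio reached 2-fold, and the higher library had a UMI in at least 10 cells. In the irradiated over the non-irradiated wild-type library, 84 of 2868 genes were higher (2.93%) and 56 lower (1.95%). With cKO with drug over irradiated wild-type, 33 of 3213 were higher (1.03%) and 26 lower (0.809%). With cKO with drug over non-irradiated wild-type, 64 of 2834 were higher (2.26%) and 33 lower (1.16%). Comparisons 1 and 3 in this order share the non-irradiated library. The median log2 ratio of all genes was 0.14, 0.00 and 0.14. Centring on that median turned the share of higher genes among those apart from 60% to 39.3% (46 higher, 71 lower) in the first comparison and from 66% to 39.8% (33 and 50) in the other comparison with the non-irradiated library. The values below are uncentred, and centring takes 0.14 from each log2 ratio of both comparisons with the non-irradiated library. For gene lists, members at least 1.5-fold apart on the same scale were counted. Over all genes, 15.1% were that much higher and 5.89% lower in the first comparison, 5.82% and 6.63% in the second, and 13.2% and 5.36% in the third. These shares are for all members. No 1.5-fold share over all genes is given here for the settings that leave out cells. List counts in those settings therefore have no matching background.

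Few ILC2 identity genes stood apart between libraries over all members. Of 26 measured, 2 were higher and 1 lower in irradiated over non-irradiated wild-type (median log2 ratio 0.03), 1 higher and 0 lower in cKO with drug over irradiated wild-type (0.06), and 2 higher and 0 lower in cKO with drug over non-irradiated (0.15). Among the few members free of T cell receptor constant transcripts, 6 of 15 were higher and 3 lower in the first comparison (median 0.25). Rora was 1.69-fold (1.55 to 1.85) higher in the irradiated than the non-irradiated wild-type library on the plain CPM scale. T cells of these libraries had 653, 1413 and 811 CPM of Rora, in the same order as the members. Lmo4 was 1.57-fold (1.35 to 1.83) higher, and stood at 94.2, 72.3 and 59.3 CPM in T cells. Icos, a costimulatory receptor, stood at 604, 915 and 701 CPM, and Cxcr6, a receptor of tissue lymphocytes, at 462, 660 and 724 CPM. Thy1 stood at 106, 149 and 114 CPM, Ets1 at 464, 565 and 571 CPM, Il2rg at 294, 354 and 364 CPM and Bcl11b at 58.8, 96.9 and 78.9 CPM. Tnfrsf18, which encodes the costimulator GITR, was level at 406, 412 and 404 CPM, as was Cd81 at 176, 182 and 167 CPM. The receptor gene Ltb4r1 for leukotriene B4 stood at 78.3, 67.6 and 90.5 CPM, Pxdc1 at 283, 230 and 234 CPM, Ly6a at 118, 108 and 153 CPM, Gfi1 at 44.8, 42.8 and 55.7 CPM and Pparg at 50.4, 49.6 and 39.4 CPM. For Ly6a, Gfi1, Pparg, Pxdc1 and Ltb4r1 the counting intervals overlapped across the libraries.

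MHC class II genes, which present antigen to CD4 T cells, were higher in the members of both irradiated libraries. Of the list of class II and costimulatory genes, 5 of 5 measured were higher in irradiated over non-irradiated wild-type (median log2 ratio 1.89) and 4 of 4 in cKO with drug over non-irradiated (2.07). H2-Eb1, a class II beta chain, had 13, 107 and 119 UMIs in 9, 17 and 18 members, or 36.4 (19.4 to 62.2), 241 (198 to 291) and 276 (229 to 330) CPM. Cd74, the invariant chain that accompanies class II, had 72, 384 and 400 UMIs in 24, 37 and 34 members, or 201 (158 to 254), 865 (781 to 956) and 928 (839 to 1024) CPM. H2-Ab1 stood at 33.6, 178 and 160 CPM and H2-Aa at 39.2, 131 and 223 CPM. For each of these 4 genes the irradiated libraries lay above the non-irradiated interval. T cells of the same libraries went the other way, with 166, 109 and 62 CPM of H2-Eb1 and a list median of -0.51 in the first comparison and -1.18 in the third. The barcodes that met the rule apart from a Cd3 UMI had 294, 1190 and 426 CPM of Cd74 and 177, 282 and 37.2 CPM of H2-Eb1. In that group both genes stood highest in the irradiated wild-type library, whereas in members both stood highest in cKO with drug. The H2-Eb1 level of that group was lowest in cKO with drug. Both sets were higher in irradiated than in non-irradiated wild-type, so that class II difference is not shown to be particular to the members.

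The class II levels in members stayed below those of the remaining kept barcodes, which had 582, 724 and 491 CPM of H2-Eb1 and 2362, 2490 and 1846 CPM of Cd74. In the irradiated wild-type library all 4 genes were under 50% of that level, the limit below which a gene was treated as possible free RNA, and in cKO with drug H2-Aa and H2-Ab1 were. The 4 epithelial transcripts taken to follow free RNA were lowest in the irradiated wild-type members; the part of free RNA in the class II levels was not tested. Markers of dendritic cells in members summed to 123, 149 and 239 CPM, with Flt3, Xcr1, Clec9a and Cd209a at 0. That list includes the class II gene H2-Aa, whose own level, given above, made up most of the sum in both irradiated libraries. The rise of the sum is therefore not separate from the class II difference. Without the cells with NK markers the counts were 4 of 4 and 4 of 4, with medians of 1.90 and 2.12. Among female-type members only they were 4 of 4 and 4 of 4, with medians of 2.11 and 2.09. Among the members free of T cell receptor constant transcripts 2 of 2 measured genes and 1 of 1 were higher, with medians of 2.78 and 3.06. Between cKO with drug and irradiated wild-type 1 of 5 genes was higher and 1 lower (median 0.10). Tnfsf4, which encodes the costimulator OX40L, was the fifth gene of the list, with 6, 26 and 10 UMIs.

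Most measured interferon-stimulated genes were also higher in the members of both irradiated libraries. Of the type I interferon list, 7 of 9 measured genes were higher and 0 lower in irradiated over non-irradiated wild-type (median 0.92), and 6 of 9 and 0 in cKO with drug over non-irradiated (0.75). Isg15, a ubiquitin-like interferon product, was found in 12, 19 and 18 members at 39.2 (21.4 to 65.7), 137 (105 to 176) and 142 (108 to 182) CPM. A single cell held 54.1% of the Isg15 UMIs of the irradiated wild-type library. Bst2, the antiviral tetherin, was spread over more cells, with 12, 24 and 23 members and 36.4 (19.4 to 62.2), 113 (83.6 to 148) and 85.9 (60.4 to 118) CPM. Ifit1 had 0, 66 and 10 UMIs, of which 86.4% in the irradiated wild-type library came from 1 cell. T cells had list medians of 0.05 and 0.30 in these comparisons. Without the cells with NK markers, 6 of 8 and 4 of 7 genes were higher. Among members free of T cell receptor constant transcripts only 1 gene of the list had enough UMIs. At a minimum of 100 UMIs, 1 gene was measured in irradiated over non-irradiated wild-type. It did not reach 1.5-fold (log2 ratio 0.32), so the count of 7 rests on genes with few UMIs. Over irradiated wild-type, 1 of 11 genes in cKO with drug was higher and 2 lower (median 0.02).

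In the list of interferon-gamma GTPases and MHC class I genes, 3 of 8 measured genes were higher and 1 lower in irradiated over non-irradiated wild-type (median 0.52), and 9 of 12 higher and 0 lower in cKO with drug over non-irradiated (0.72). Over irradiated wild-type, 3 of 14 in cKO with drug were higher and 0 lower (0.29). B2m, the class I light chain, stood at 1905 (1765 to 2054), 3147 (2984 to 3316) and 3692 (3513 to 3878) CPM. The levels of B2m did not overlap between any 2 libraries. H2-K1, a class I heavy chain, stood at 1407, 2376 and 2738 CPM, and Irf1, an interferon-induced transcription factor, at 229, 349 and 506 CPM. T cells had 1863, 2343 and 2663 CPM of B2m, in the same order. Irf8 was the gene lower in the irradiated wild-type library (397, 137 and 439 CPM), and without the cells with NK markers its log2 ratio there was 0.05 instead of -1.41.

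Several immediate early genes, which switch on within minutes of a stimulus, were lower in members of both irradiated libraries, while most of their list did not reach 1.5-fold. Of the immediate early and heat shock list, 7 of 19 measured genes were lower and 2 higher in irradiated over non-irradiated wild-type (median -0.31), and 6 of 17 lower and 0 higher in cKO with drug over non-irradiated (-0.48). Fos stood at 1147 (1039 to 1264), 270 (224 to 323) and 371 (316 to 433) CPM and was found in 47, 30 and 30 members. Fosb stood at 2191 (2040 to 2350), 921 (834 to 1015) and 763 (683 to 851) CPM. Jund stood at 2949, 1230 and 1557 CPM, and Atf3, a stress-induced factor, at 834, 423 and 223 CPM. The non-irradiated library was the highest for all 4. T cells had 232, 132 and 130 CPM of Fos and 300, 203 and 146 CPM of Fosb, with list medians of -0.09 and -0.33. Without the cells with NK markers, 6 of 17 genes were lower in each of the 2 comparisons. Among members free of T cell receptor constant transcripts 4 of 15 and 8 of 14 were lower, with medians of -0.17 and -1.01, and the log2 ratio of Atf3 in the first comparison was 1.46 instead of -0.94. Over irradiated wild-type, 0 of 17 in cKO with drug were higher and 2 lower (median 0.02), against 1 higher and 9 lower of 15 (median -0.73) among the members free of these transcripts. At the 2-fold limit, all genes of these members also leaned lower in cKO with drug. Over irradiated wild-type 4 of 596 were higher and 25 lower, and over non-irradiated 5 of 598 higher and 34 lower. In irradiated over non-irradiated wild-type 17 of 666 were higher and 16 lower. These counts also required a UMI in at least 10 cells of the higher library, so they are no matching background for the 1.5-fold list counts. The part of that lean in the list counts was not tested. Free RNA and mesenchymal transcripts were also highest in the non-irradiated members; their part was not tested.

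Checkpoint and feedback genes had more lower than higher members in both comparisons with the non-irradiated library. Of these, 9 of 24 measured were lower and 2 higher in irradiated over non-irradiated wild-type (median -0.19), and 8 of 25 lower and 2 higher in cKO with drug over non-irradiated (-0.42). Set against irradiated wild-type, 3 of 25 in cKO with drug were higher and 2 lower (0.02). Among members free of T cell receptor constant transcripts the first comparison had 2 of 16 lower and 3 higher (median -0.06), the comparison with irradiated wild-type 8 of 16 lower and 1 higher (-0.59), and that of cKO with drug over non-irradiated 9 of 16 lower and 2 higher (-0.91). All genes of these members also leaned lower in both comparisons of cKO with drug, as given above for the immediate early list. Zfp36, which destabilises cytokine mRNA, stood at 792, 273 and 304 CPM. Nr4a1, an orphan nuclear receptor induced by activation, stood at 685 (602 to 777), 410 (353 to 474) and 204 (164 to 252) CPM. Socs1, an inhibitor of cytokine signalling, stood at 118, 36 and 76.6 CPM. Ctla4 was among the higher genes, with 7, 39 and 41 UMIs in 4, 14 and 9 members, or 19.6, 87.8 and 95.1 CPM. In irradiated over non-irradiated wild-type Ctla4 lay under the limit for possible free RNA given above, whose part was not tested. Markers of regulatory T cells, Ctla4 among them, summed to 562, 901 and 801 CPM in members with Il10 at 0; their part was not tested.

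**Figure D4:**
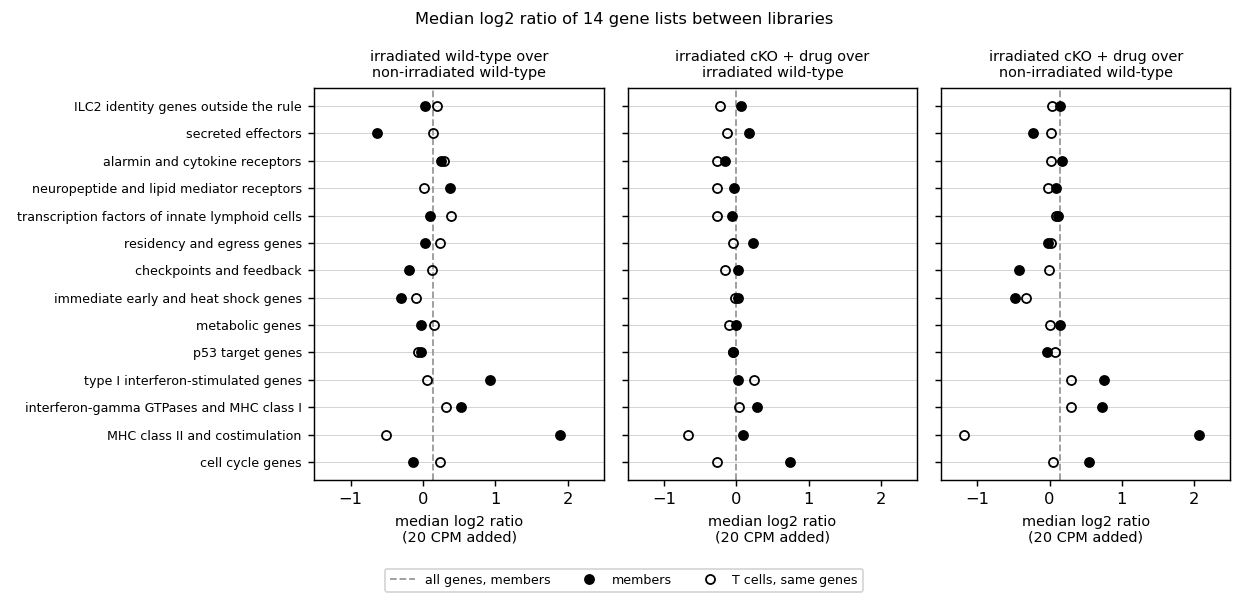
Median log2 ratio (20 CPM added) of 14 gene lists in members (filled) and, for the same genes, in T cells (open) for the 3 pairs of libraries; the dashed line is the median of all genes in members. MHC class II stands at 1.89 and 2.07 in the members of the irradiated libraries over the non-irradiated library and below 0 in T cells, and the immediate early list at -0.31 and -0.48.

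Of the p53 target genes, which are known to be induced by DNA damage, few stood apart. Of 9 measured, 0 were higher and 1 lower in irradiated over non-irradiated wild-type (median -0.03), and 0 of 10 were in either direction in cKO with drug over irradiated wild-type (-0.04). Cdkn1a, the cell cycle inhibitor p21, stood at 599 (521 to 685), 556 (489 to 630) and 527 (460 to 600) CPM, with overlapping intervals. The lower gene was Btg2, an antiproliferative factor, at 344, 171 and 225 CPM. Of 25 cell cycle genes only 3 or 4 could be measured in a pair. None of 3 reached 1.5-fold in irradiated over non-irradiated wild-type (median -0.14), 3 of 4 were higher in cKO with drug over irradiated wild-type (0.74) and 2 of 4 over non-irradiated (0.54). These counts were 2 of 4 and 1 of 4 without the cells with NK markers. Hmgb2, a chromatin protein, stood at 417, 345 and 652 CPM. Stmn1 had 7, 6 and 37 UMIs, of which 75.7% in cKO with drug came from 1 cell.

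Secreted effectors varied gene by gene. Calca stood at 641 (560 to 729), 1509 (1397 to 1628) and 770 (690 to 858) CPM, found in 26, 42 and 31 members. It was 2.36-fold (2.02 to 2.75) higher in the irradiated than the non-irradiated wild-type library, and 0.51 times (0.446 to 0.583) that level in cKO with drug. T cells held 14.9, 14.8 and 10.7 CPM. The group with a Cd3 UMI held 250, 44.3 and 94.9 CPM of Calca, highest in the non-irradiated library, unlike the members. Csf2 stood at 985 (885 to 1093), 568 (500 to 642) and 420 (361 to 486) CPM, highest in the non-irradiated library and without overlap between any 2 libraries. Furin, a proprotein convertase, stood at 1458, 1318 and 1221 CPM. Among the 16, 13 and 11 members free of T cell receptor constant transcripts, the log2 ratio of irradiated over non-irradiated wild-type was -0.16 for Calca, and that of cKO with drug over non-irradiated was 1.00 for Csf2, each of the opposite sign to that over all members.

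The chemokine genes Ccl3, Ccl4 and Ccl5 and the protease gene Gzmb differed widely between libraries, and each was computed again without the cells that carried NK markers. Ccl5 stood at 2121, 441 and 2244 CPM, Ccl3 at 1153, 142 and 83.5 CPM, Ccl4 at 576, 54.1 and 95.1 CPM, and Gzmb at 898, 69.8 and 325 CPM. A single cell held 66.3% of Ccl3 and 57.6% of Gzmb UMIs in the non-irradiated library. Without the cells with NK markers, the log2 ratio of irradiated over non-irradiated wild-type was 0.59 for Ccl5 instead of -2.21, -0.22 for Ccl3 instead of -2.86, -0.66 for Ccl4 instead of -3.01 and 0.09 for Gzmb instead of -3.35. Gzmb is among the genes by which these cells were removed, so its change follows in part from that choice and supports nothing. Tyrobp, an adaptor of NK and myeloid receptors, moved from -2.23 to -0.82. Il6 stood at 168, 36 and 41.8 CPM, with 88.3% of its non-irradiated UMIs in 1 cell. Its log2 ratio without the cells with NK markers turned from -1.75 to 0.45 in the first comparison and from -1.60 to 0.60 in cKO with drug over non-irradiated. The effector list had 6 of 12 genes lower and 2 higher in the first comparison (median -0.64), and 1 of 9 lower and 2 higher (median -0.18) without these cells. In cKO with drug over irradiated wild-type it had 4 of 12 higher and 3 lower (median 0.18), and in cKO with drug over non-irradiated 0 higher and 5 lower (-0.23). These became, without the cells with NK markers, 1 of 10 higher and 2 lower (0.14), and 1 of 9 higher and 2 lower with the median turned to 0.13.

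Among receptors of alarmins and cytokines, 5 of 22 were higher and 0 lower in irradiated over non-irradiated wild-type (median 0.25, T cells 0.29). In cKO with drug over irradiated wild-type 0 of 22 were higher and 1 lower (-0.15), and in cKO with drug over non-irradiated 1 of 20 was higher and 0 lower (0.17). Il18rap, a chain of the IL-18 receptor, stood at 118, 228 and 151 CPM. Il7r, the survival receptor of innate lymphoid cells, stood at 252, 261 and 276 CPM and Il2ra at 294, 342 and 288 CPM, each with overlapping intervals. Crlf2, the TSLP receptor chain, stood at 72.7, 101 and 114 CPM.

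Of the neuropeptide and lipid mediator receptors, 2 of 12 were higher and 1 lower in irradiated over non-irradiated wild-type (median 0.38), 0 of 11 were higher and 1 lower in cKO with drug over irradiated wild-type (-0.03), and 0 of 11 were higher and 1 lower in cKO with drug over non-irradiated (0.09). Ramp3, a subunit of adrenomedullin and CGRP-family receptors, stood at 722 (636 to 815), 1149 (1051 to 1253) and 768 (688 to 855) CPM, highest in the irradiated wild-type library, as Calca was.

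Of the transcription factors of innate lymphoid cells, 4 of 24 were higher and 0 lower in irradiated over non-irradiated wild-type (median 0.10). Tox, needed for innate lymphoid development, stood at 95.1 (65.9 to 133), 239 (195 to 289) and 172 (135 to 216) CPM and was found in 19, 47 and 35 members. Tcf7 had 7, 29 and 23 UMIs and Ikzf2 20, 54 and 45 UMIs. In cKO with drug over irradiated wild-type 0 of 25 were higher and 1 lower (median -0.06), and in cKO with drug over non-irradiated 3 of 24 were higher and 2 lower (0.12). Among members free of T cell receptor constant transcripts the medians were of the opposite sign in the comparisons with the non-irradiated library, with 1 of 10 higher and 4 lower (-0.10) in irradiated wild-type and 0 of 8 higher and 2 lower (-0.34) in cKO with drug. Tcf7 then had a log2 ratio of -1.49 instead of 1.11 in irradiated over non-irradiated wild-type.

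Residency and egress genes had 7 of 20 lower and 2 higher in irradiated over non-irradiated wild-type (median 0.03), 3 of 19 higher and 2 lower in cKO with drug over irradiated wild-type (0.23), and 3 of 19 in each direction in cKO with drug over non-irradiated (-0.02). Vim, which encodes vimentin, stood at 565, 185 and 469 CPM, S100a6 at 364, 128 and 429 CPM and the integrin gene Itga4 at 118, 291 and 109 CPM. For these 3 genes the irradiated wild-type library stood apart from both others over all members. In irradiated over non-irradiated wild-type, Vim and S100a6 lay under the limit for possible free RNA given above. S100a6 also lay under it in cKO with drug over irradiated wild-type. The part of free RNA in these levels was not tested. Cd69, which holds lymphocytes in tissue, stood at 330, 155 and 186 CPM. Among members free of T cell receptor constant transcripts, 4 of 12 genes were lower and 3 higher in the first comparison, where Itga4 turned from 1.18 to -0.23 and Cd69 to 0.99. Ccr7, a lymph node homing receptor, stood at 126, 151 and 25.5 CPM. Other kept barcodes had 244, 358 and 358 CPM of Ccr7. Its level in the irradiated wild-type members lay under the limit for possible free RNA, whose part was not tested.

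Of metabolic genes, 3 of 21 were higher and 2 lower in irradiated over non-irradiated wild-type (median -0.02), 1 of 23 higher and 1 lower in cKO with drug over irradiated wild-type (0.00), and 2 of 22 in each direction in cKO with drug over non-irradiated (0.14). Dgat1, which esterifies fatty acids into triglyceride, stood at 571 (495 to 655), 1356 (1250 to 1469) and 689 (613 to 772) CPM, in 42, 63 and 52 members. T cells held 354, 551 and 324 CPM of it, also highest in the irradiated wild-type library. Tph1, the serotonin-synthesis enzyme, had 7, 34 and 33 UMIs, with 64.7% of the irradiated wild-type UMIs in 1 cell.

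**Figure D5:**
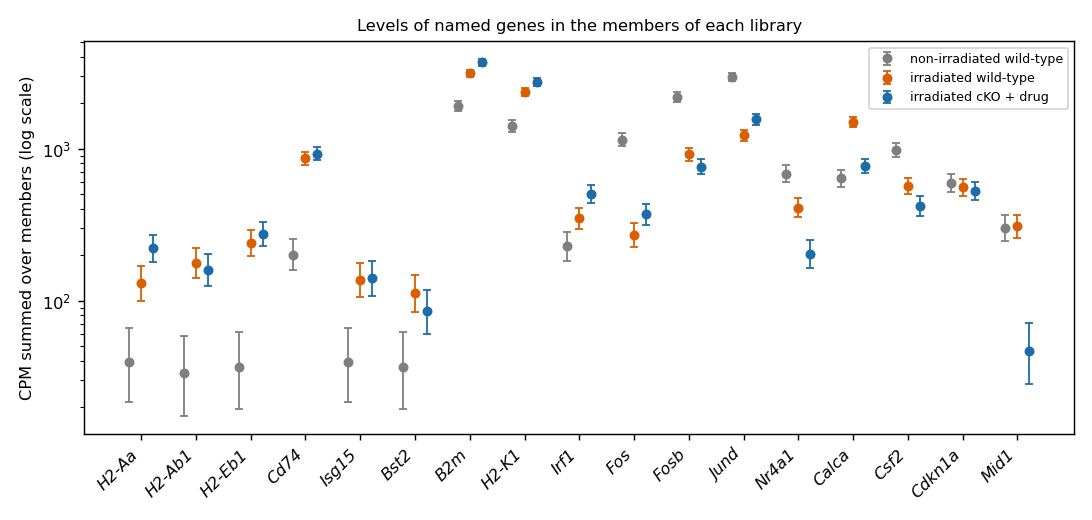
Summed level (CPM, logarithmic axis) of 17 genes in the members of each library, with exact 95% Poisson intervals that cover counting error only. Class II genes are lowest and Fos, Fosb, Jund and Csf2 highest in the non-irradiated library, Calca is highest in the irradiated wild-type library at 1509 CPM, and Mid1 is lowest in cKO with drug at 46.4 CPM.

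Genes under the 50% limit for free RNA, which in this comparison include the class II genes, were left out when the genes with the largest ratios were named. The 5 highest of irradiated over non-irradiated wild-type were then Tnfsf8, Serinc5, Plac8, Plagl1 and Ccnd2. Tnfsf8, which encodes CD30 ligand, had 4, 155 and 74 UMIs in 3, 12 and 13 members, or 11.2 (3.05 to 28.7), 349 (296 to 409) and 172 (135 to 216) CPM. T cells had 135, 207 and 158 CPM of Tnfsf8, and the ratio turned to a log2 value of -0.68 among members without T cell receptor constant transcripts. The group with a Cd3 UMI had 490, 266 and 198 CPM of Tnfsf8, highest in the non-irradiated library. In the irradiated wild-type members 1 cell held 35.5% of the Tnfsf8 UMIs. Ccnd2, a cyclin of early cell cycle entry, stood at 101, 318 and 179 CPM, and Plac8 at 47.6, 187 and 281 CPM. The 5 lowest were Ccl4, Ccl3, Lgals1, Tyrobp and Ccl5. Lgals1, which encodes galectin-1, stood at 464, 81.1 and 439 CPM. Its log2 ratio of -2.26 was -1.60 without the cells with NK markers, unlike Ccl5, whose ratio turned.

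In cKO with drug over irradiated wild-type, the 5 highest were Ccl5, Lgals1, Gzmb, Fcer1g and AW112010, and the 5 lowest Mid1, Ptgs2, Cd83, Ccl1 and Smad4. Without the cells with NK markers, the log2 ratios were 0.15 for Ccl5 instead of 2.29, 0.46 for Gzmb instead of 1.94, 0.44 for Fcer1g instead of 1.72 and 0.18 for AW112010 instead of 1.72, while Lgals1 stood at 2.31 against 2.18. The change for Gzmb follows in part from its use in removing these cells. Mid1, an X-linked ubiquitin ligase of microtubules, was found in 43, 55 and 9 members at 302 (248 to 365), 309 (259 to 365) and 46.4 (28.3 to 71.7) CPM, a ratio of 0.15 (0.0891 to 0.241). All other kept barcodes had 104, 148 and 34.1 CPM of Mid1, so the low level in cKO with drug was not confined to members. Ptgs2, the prostaglandin synthase COX-2, had 22, 88 and 21 UMIs. Ccl1 stood at 151 (113 to 197), 273 (226 to 326) and 85.9 (60.4 to 118) CPM, with 33.1% and 32.4% of the UMIs of the irradiated libraries in 1 cell. Smad4, a mediator of TGF-beta signals, had 10, 31 and 6 UMIs.

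In cKO with drug over non-irradiated wild-type, the 5 highest were Tnfsf8, H2-Eb1, Plac8, Cd74 and Pmepa1, and the 5 lowest Ccl3, Ccl4, Mid1, Atf3 and Ccr7. Pmepa1 was found in 9, 23 and 32 members at 36.4 (19.4 to 62.2), 90.1 (64.4 to 123) and 144 (110 to 184) CPM, with 71.3, 141 and 134 CPM in T cells. Irradiation, genotype and drug cannot be told apart in this comparison.

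Transcripts of the alarmins that act on ILC2 were found in other cells. Il33 had 1457, 297 and 402 UMIs over kept barcodes and was found in 0, 0 and 1 member. Among non-leukocytes it was at 26.6, 35 and 27.3 CPM and had a UMI in 6.66%, 7.46% and 5.8% of 8000, 777 and 1723 barcodes. Tslp was at 21.7, 17 and 20.8 CPM among non-leukocytes, with no UMI in a member, and Il25 had 2 UMIs in the whole series. dTomato, a reporter sequence in the reference of the deposited files, was found in 2, 1 and 2 members (3.17%, 1.43% and 3.33%) against 13.1%, 4.08% and 4.54% of all kept barcodes; the labels do not say which cells carry it.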

How the data were processed

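The authors deposited unnormalized UMI counts for each gene and barcode, in 1 matrix per group. The genome build was mm10 per the submitters' processing notes, and the file headers give software version 3.1.0 without a name; for the aligner and annotation, the build and version are all that these sources give. Every deposited barcode has at least 500 UMIs, and cells below that were not analysed here. There were 31054 features. Gene names came from the files, positions from the GRCm38 annotation, promoters from RefSeq.

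Members were selected by the rule above and their counts summed per library (pandas 2.3.3, numpy 2.4.6; intervals with scipy 1.17.1, under python 3.11.15). Leukocyte-type barcodes were those richer in leukocyte than in other lineage genes. Doublets were scored with Scrublet in scanpy 1.11.5 at 0.8% per 1000 barcodes and kept in the main results; 3, 0 and 3 members were scored. Without replicates no test was made. The 20 CPM added understate the change of low genes. Named genes were the 5 highest and 5 lowest ratios of each pair, without genes of the rule, possible free RNA (under 50% of the level in other kept barcodes of the higher library), clone models, immunoglobulins, receptor segments, haemoglobins, ribosomal proteins, mitochondria, Xist and the Y chromosome, the measured identity genes, the 15 genes most above T cells, and list members. Some genes of the lists are counted but not reported here by name. The members and lists were chosen with earlier results of these data known. Alternatives covered T cell receptor constant genes, doublets, female-type cells, stricter Gata3 and depth limits, thinning, the CPM added, centring, and the UMI minimum.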

Additional observations from a re-analysis of the deposited data

How the results depend on the processing

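The member shares were 0.481%, 1.21% and 0.607% in the order used above. Requiring 0 UMIs of the T cell receptor constant genes gave 0.122%, 0.224% and 0.111%, and thinning to 1000 UMIs gave 0.366%, 0.869% and 0.372%; female-type cells alone gave 0.619% and 1.6% in the wild-type libraries. The irradiated wild-type library was highest under each of these, all of which are shares of kept barcodes. The thinned shares count, as given above, some barcodes that were not members at full depth. That order depends on the denominator. Members free of constant genes numbered 16 in the non-irradiated and 13 in the irradiated wild-type library, beside 5091 and 5028 leukocyte-type barcodes. On that scale the irradiated wild-type library was therefore not the highest in this setting. The other settings are not given on that scale. The numbers of genes apart were 140 (irradiated over non-irradiated wild-type), 59 (cKO with drug over irradiated wild-type) and 97 (cKO with drug over non-irradiated). Without T cell receptor constant genes they were 33, 29 and 39, with 5 CPM added 246, 139 and 190, and with at least 100 UMIs over both libraries 54, 16 and 35. The settings without constant genes and with 100 UMIs compare fewer cells or fewer genes; other causes were not tested. Under the setting without constant genes, with 16, 13 and 11 cells, the log2 ratio of irradiated over non-irradiated wild-type turned to -0.16 for Calca, -0.23 for Itga4, -1.49 for Tcf7 and -0.68 for Tnfsf8, and Csf2 turned to 1.00 in cKO with drug over non-irradiated. Without the cells with NK markers, an alternative chosen after seeing the data, the first comparison turned to 0.20 for AW112010, 0.59 for Ccl5 and 0.05 for Irf8, and, for genes found in too few cells to be called apart, to 0.09 for Gzmb and 0.45 for Il6. In cKO with drug over non-irradiated, Gzmb turned from -1.41 to 0.55 and Il6 from -1.60 to 0.60, and in cKO with drug over irradiated wild-type Ccl4 from 0.64 to -0.26. Gzmb was itself used to remove these cells, so its turns are a description only. No list median changed direction among those past 1.5-fold. No paired analysis was possible because each group has 1 library. At this depth, 0 UMIs of a gene limit the share of members with a UMI, not of members that express it.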
